A study of Mus musculus with 18 samples.

Results

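Thyroid tissue lies against the larynx, and the share of thyroid RNA differed widely among the 6 whole-larynx libraries of mice that inhaled e-cigarette vapour. These 6 libraries, of 18 in the series, were sorted by thyroglobulin (Tg), the iodinated storage protein of thyroid follicles. Libraries in which Tg took more than 1% of all gene counts were called thyroid-retaining (2 libraries, replicates 1 and 3) and those below 1% thyroid-poor (4 libraries, replicates 2, 4, 5 and 6). Tg took 2.69% of counts in library 1 and 2.77% in library 3, and 0.0729%, 0.00854%, 0.00795% and 0.271% in libraries 2, 4, 5 and 6. The value just inside the threshold was therefore 2.69% and the value just outside it 0.271%. Because the sets were made from a measured transcript, differences between them are given as descriptions without p-values, and they support no statement about exposure.

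All libraries were bulk RNA-seq of whole larynx from male C57BL6/J mice aged 8 to 9 weeks. One group breathed room air (6 libraries), one the smoke of 3R4F research cigarettes (6), and one the aerosol of a JUUL e-cigarette labelled Virginia tobacco (6), each in a whole-body chamber for 1 h per day on 5 days per week over 4 weeks. Individual mice were exposed, but no label ties each library to 1 animal, and any p-value therefore reflects variation among these samples, which may be technical. The thyroid-retaining libraries held 18661835 and 18791670 counts, against 16697879 to 22469894 in the thyroid-poor set, and mitochondrial transcripts took 4.97% and 6.54% against 5.55% to 7.60%. Library 6 stood apart from the other 5 on the first principal component of the e-cigarette libraries (33.1% of variance), and the sets followed the second (26.4%), on which libraries 1 and 3 were highest and 4 and 5 lowest. In bulk tissue, fewer cells of a type and less RNA per cell cannot be told apart.

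Thyroid follicular cells take up iodide, couple it to tyrosines of thyroglobulin, and release thyroid hormone after the protein is taken back up and cut. Their identity rests on the transcription factors Pax8, Nkx2-1, Foxe1 and Hhex. Between the follicles sit C cells, neuroendocrine cells that make calcitonin from Calca, and the parathyroid glands, which make parathyroid hormone, lie on or in the thyroid.

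Promoters of 4 genes on which the sorting bears are shown here: Slc5a5, the iodide symporter, Pax8, Calca, and Cybrd1, an iron-reducing membrane protein singled out after its values were seen because it ranked first when genes were sorted by the difference relative to its error. Each is the 250 bases upstream of the RefSeq start (GRCm38.p6), read 5′ to 3′ on the gene's strand: Slc5a5 at chr8:70892758-70893007 (minus), Pax8 at chr2:24475600-24475849 (minus), Calca at chr7:114636358-114636607 (minus) and Cybrd1 at chr2:71117804-71118053 (plus). Capitals mark CAAG, the core recognised by NKX2-1, on either strand, and in Cybrd1 also the longer match CACTCAAG that contains it.
Slc5a5: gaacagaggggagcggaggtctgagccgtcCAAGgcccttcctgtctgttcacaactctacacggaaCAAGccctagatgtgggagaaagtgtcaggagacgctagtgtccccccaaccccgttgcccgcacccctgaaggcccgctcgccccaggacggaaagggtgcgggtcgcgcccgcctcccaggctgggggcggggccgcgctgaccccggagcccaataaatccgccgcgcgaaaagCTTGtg
Pax8: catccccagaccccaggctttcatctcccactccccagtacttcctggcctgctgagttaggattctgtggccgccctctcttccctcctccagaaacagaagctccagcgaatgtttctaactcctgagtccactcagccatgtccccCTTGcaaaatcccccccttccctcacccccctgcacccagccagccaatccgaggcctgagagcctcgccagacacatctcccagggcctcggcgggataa
Calca: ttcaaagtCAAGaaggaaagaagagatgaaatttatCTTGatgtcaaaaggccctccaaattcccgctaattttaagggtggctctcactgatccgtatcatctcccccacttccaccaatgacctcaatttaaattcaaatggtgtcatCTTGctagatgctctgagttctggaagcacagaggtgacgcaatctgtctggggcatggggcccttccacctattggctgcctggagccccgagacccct
Cybrd1: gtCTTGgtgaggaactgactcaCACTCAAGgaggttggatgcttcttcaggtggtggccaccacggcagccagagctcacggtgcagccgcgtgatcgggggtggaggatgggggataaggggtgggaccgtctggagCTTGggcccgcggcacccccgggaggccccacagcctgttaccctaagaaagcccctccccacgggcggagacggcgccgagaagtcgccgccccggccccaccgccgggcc
The core was in 86.6% of all 32851 promoter windows of this length and in 84.5% of the 84 windows of the 80 genes called between the sets as described further on (59 of the 80 had a window). CACTCAAG was in 0.965% of all windows and in 2 of those 84 (2.38%), Cybrd1 and Kcnj16. These are letter matches only.

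The follicular genes that define the tissue fell with Tg from library to library. Tg (chr15:66670753-66850721) stood at 26460 and 28821 CPM (counts per 1000000 counts of TMM-scaled library size) in libraries 1 and 3, and at 743, 92.7, 83.2 and 2794 CPM in libraries 2, 4, 5 and 6, against 55355 to 97027 CPM in air. Even the thyroid-retaining libraries thus lay below all air libraries, at 36.5% and 39.8% of the air mean. Pax8 had 33.5 and 40.6 CPM in the thyroid-retaining libraries and 1.46, 0.270, 0.115 and 5.98 CPM in libraries 2, 4, 5 and 6. Iyd, which recycles iodide from iodotyrosines, had 88.5 and 87.2 CPM, then 3.78, 0.809, 0.634 and 14.8 CPM in the same order. Cdh16, a cadherin of thyroid and kidney epithelium, had 58.7 and 53.1 CPM, then 2.26, 0.270, 0.0577 and 10.3 CPM. For all of these the sets did not overlap, and within the thyroid-poor set library 6 was highest and library 2 second, as for Tg. The order of libraries 4 and 5 rests on few counts, 5 and 2 for Pax8.

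**Figure D1:**
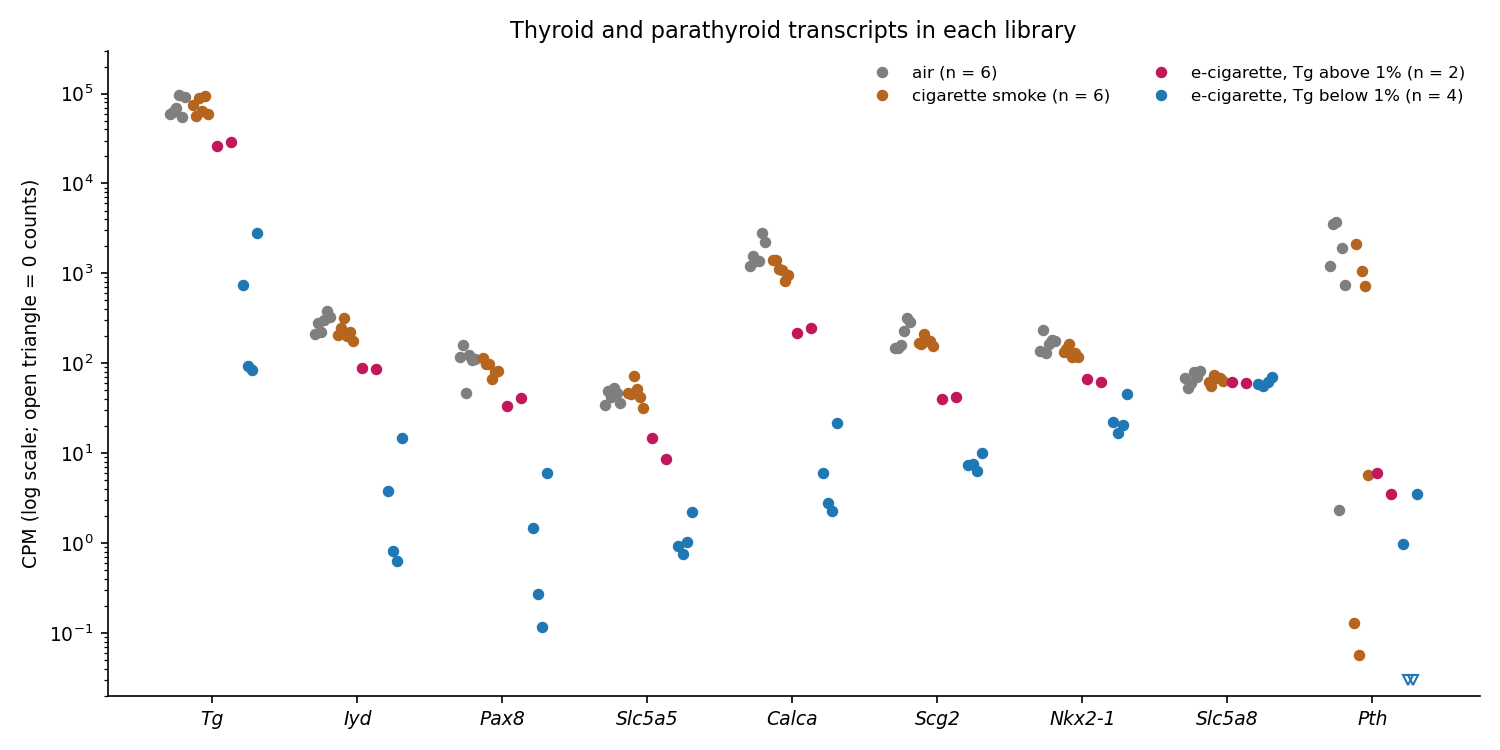
Level of 9 genes in each of the 18 libraries (CPM, log scale), 1 point per library, grouped by exposure and, for e-cigarette, by Tg share. Tg, Iyd, Pax8, Slc5a5 and Calca are highest in air and smoke, lower in the 2 thyroid-retaining and lowest in the 4 thyroid-poor libraries, Slc5a8 is level in all, and Pth is 6.02 CPM or less in all 6 e-cigarette libraries.

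Set against Tg, these genes varied far less between libraries than their levels did, though not every value lay within the range of the air and smoke libraries. Per 1000 CPM of Tg, Iyd was 3.35, 5.09, 3.03, 8.73, 7.62 and 5.28 CPM in libraries 1 to 6, against 3.12 to 6.90 in air and 2.37 to 4.37 in smoke. Pax8 was 1.27 to 2.91 CPM per 1000 CPM of Tg in the 6 libraries, against 0.666 to 2.56 in air and 0.852 to 1.73 in smoke. Cdh16 was 2.22, 3.04, 1.84, 2.91, 0.693 and 3.70 CPM per 1000 CPM of Tg in libraries 1 to 6, against 1.93 to 3.55 in air and 1.56 to 2.39 in smoke, and its value in library 5, below both ranges, rests on 1 count. As a share of the air mean, Iyd stood at 30.7%, 1.31%, 30.3%, 0.281%, 0.220% and 5.12% in libraries 1 to 6, and Tg at 36.5%, 1.03%, 39.8%, 0.128%, 0.115% and 3.86%. Per kilobase of gene length, mean levels in the thyroid-retaining set were 3112 CPM for Tg and 6.11 CPM for Pax8.

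Calca (chr7:114631478-114636357) was retained less than the follicular genes. It stood at 218 and 244 CPM in libraries 1 and 3, and at 5.98, 2.80, 2.25 and 21.8 CPM in libraries 2, 4, 5 and 6, against 1202 to 2818 CPM in air. Libraries 1 and 3 thus held 12.4% and 13.9% of the air mean. Per 1000 CPM of Tg, Calca was 8.23, 8.05, 8.47 and 7.80 CPM in libraries 1, 2, 3 and 6, below every air library (14.3 to 50.9) and every smoke library (8.76 to 24.5). Libraries 4 and 5 gave 30.3 and 27.0 on this scale. This ratio was not tested, since Tg had sorted the libraries.

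**Figure D2:**
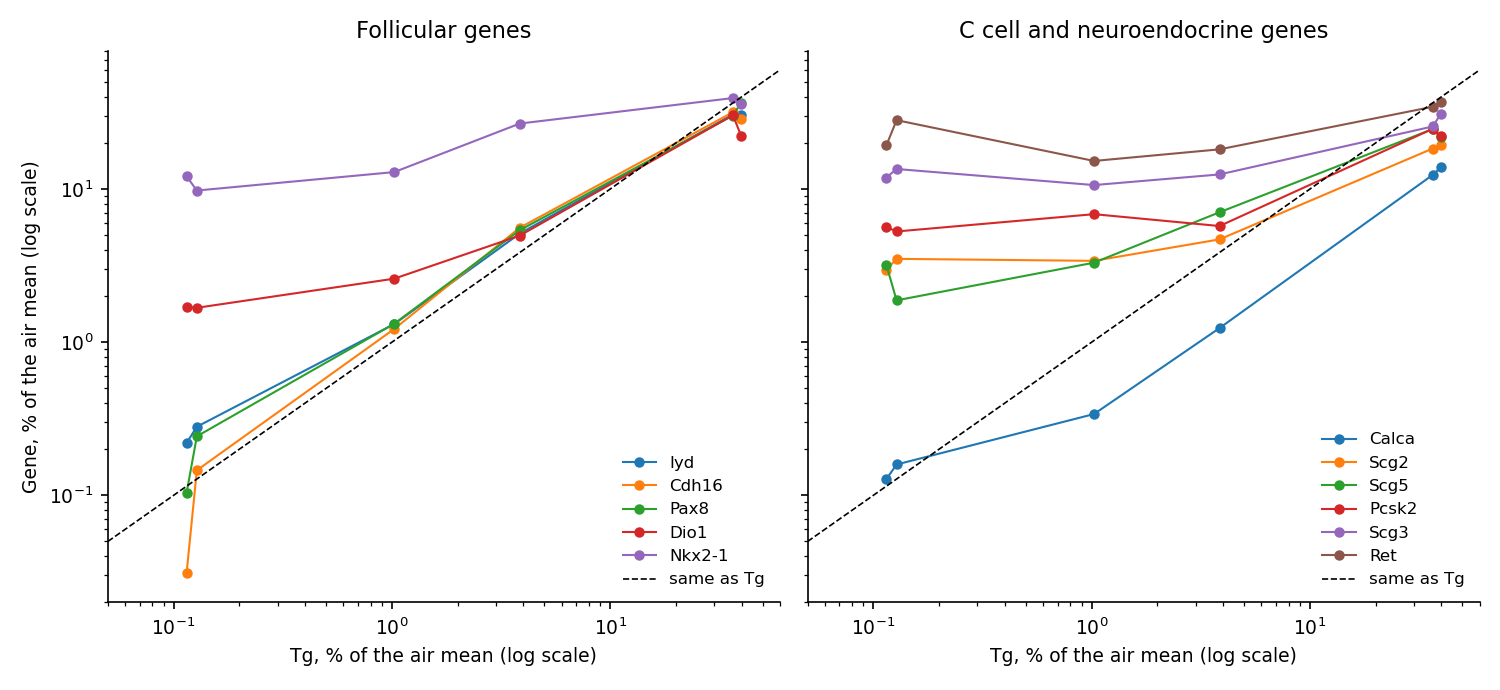
Level of each gene in the 6 e-cigarette libraries as a percentage of its mean in air, against the same percentage for Tg (both log scales). Iyd, Cdh16 and Pax8 lie close to the dashed line of equal percentage, Calca lies below it where Tg is above 1%, and Nkx2-1, Scg3 and Ret level off above it.

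Other follicular genes levelled off in the thyroid-poor libraries in place of falling with Tg. Nkx2-1 had 66.9 and 61.6 CPM in the thyroid-retaining libraries and 22, 16.7, 20.6 and 45.6 CPM in libraries 2, 4, 5 and 6, so the thyroid-poor mean was still 15.4% of the air mean. Tshr, the thyrotropin receptor, had 7.54 and 5.75 CPM against 1.40 to 3.45 CPM. Slc5a5 had 14.7 and 8.65 CPM against 0.916, 0.755, 1.04 and 2.21 CPM. Dio1, a deiodinase that activates thyroid hormone, had 37.1 and 27.3 CPM against 3.17, 2.05, 2.08 and 6.07 CPM. Hhex had 9.37 and 8.59 CPM against 1.13 to 3.17 CPM, and Lrp2, the endocytic receptor megalin, 15.2 and 10.3 CPM against 2.75 to 4.73 CPM.

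Further genes on the follicular list did not separate the sets. Slc5a8, a monocarboxylate transporter, had 62.6 and 60.2 CPM in the thyroid-retaining libraries and 56.2 to 71.2 CPM in the others. The hydrogen peroxide generator Duox2 had 18.4 and 33.5 CPM against 17.8 to 35.0 CPM, and Slc26a4, pendrin, 3.40 and 2.40 CPM against 1.89 to 4.46 CPM. Of the 26 follicular genes, 25 passed the filter on low counts (Kcne2 did not), 14 were higher in both thyroid-retaining libraries than in any thyroid-poor one, none was lower in both, and 11 overlapped. Over all 17862 genes tested, 6.71% were higher and 5.37% lower without overlap. The median difference of the list was 1.28 on the log2 scale, beside -0.01 over all genes.

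Neuroendocrine genes followed the same sorting with smaller differences than Calca. Scg2, a secretory granule protein, had 39.6 and 41.6 CPM in libraries 1 and 3, and 7.32, 7.55, 6.40 and 10.1 CPM in libraries 2, 4, 5 and 6, against 147 to 322 CPM in air. Scg5, the chaperone of prohormone convertase Pcsk2, had 19.1 and 16.9 CPM against 2.56, 1.46, 2.48 and 5.47 CPM. Pcsk2 itself had 13.9 and 12.4 CPM against 2.96 to 3.85 CPM. The receptor tyrosine kinase Ret had 13.5 and 14.5 CPM against 5.98 to 11.0 CPM. All 20 members of the C cell and neuroendocrine list had a difference above 0 (48.6% of all genes tested did), with a median of 0.79 log2. Of the 20, 13 were higher and 0 lower without overlap, where 6.71% of all genes tested were higher and 5.37% lower. The summed level of the list was 535 and 587 CPM in the thyroid-retaining libraries and 225 to 266 CPM in the thyroid-poor ones, against 2079 to 5914 CPM in air.

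The defining parathyroid transcripts were low in both sets. Pth, parathyroid hormone, had 6.02 and 3.52 CPM in libraries 1 and 3, and 0.977, 0, 0 and 3.49 CPM in libraries 2, 4, 5 and 6, where a count of 0 allows up to 0.162 CPM in library 4 and 0.173 CPM in library 5. In air Pth ranged from 2.34 to 3737 CPM with a median of 1565, and in smoke from 0.0562 to 2128 CPM. Gcm2, the parathyroid transcription factor, was at 0.105 CPM or below in every e-cigarette library, and Rhcg had no counts in any of them. Casr, the calcium-sensing receptor, had 7.59 and 4.74 CPM against 4.80 to 8.76 CPM, so the sets overlapped. Chga, made by both C cells and parathyroid, had 10.7 and 10.9 CPM against 3.81 to 8.23 CPM, far below the air median of 852 CPM.

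Across the whole table, 80 genes passed an adjusted p of 0.05 in edgeR's quasi-likelihood fit between the sets, which is used here only to sort genes, and all 80 were higher in the thyroid-retaining libraries. They are 0.448% of the 17862 genes tested, and 0 genes were lower by that rule (0%). At an unadjusted p below 0.05 there were 511 higher and 320 lower genes, and DESeq2 gave 131 higher and 9 lower. The differences of the 80 ran from 0.76 to 5.66 log2 with a median of 1.75, and 71 were protein coding. The count depended on single libraries: it was 7 without library 1, 14 without library 3, 27 without library 2, 21 without library 5 and 117 without library 6. Tg, Pax8, Iyd, Cdh16 and Calca were not among the 80, although their differences were 4.06 to 4.90 log2 and their sets did not overlap. Their levels differed widely among the thyroid-poor libraries, from 83.2 to 2794 CPM for Tg, and the SE of the difference was 1.70 log2 for Tg and 1.44 log2 for Cdh16.

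**Figure D3:**
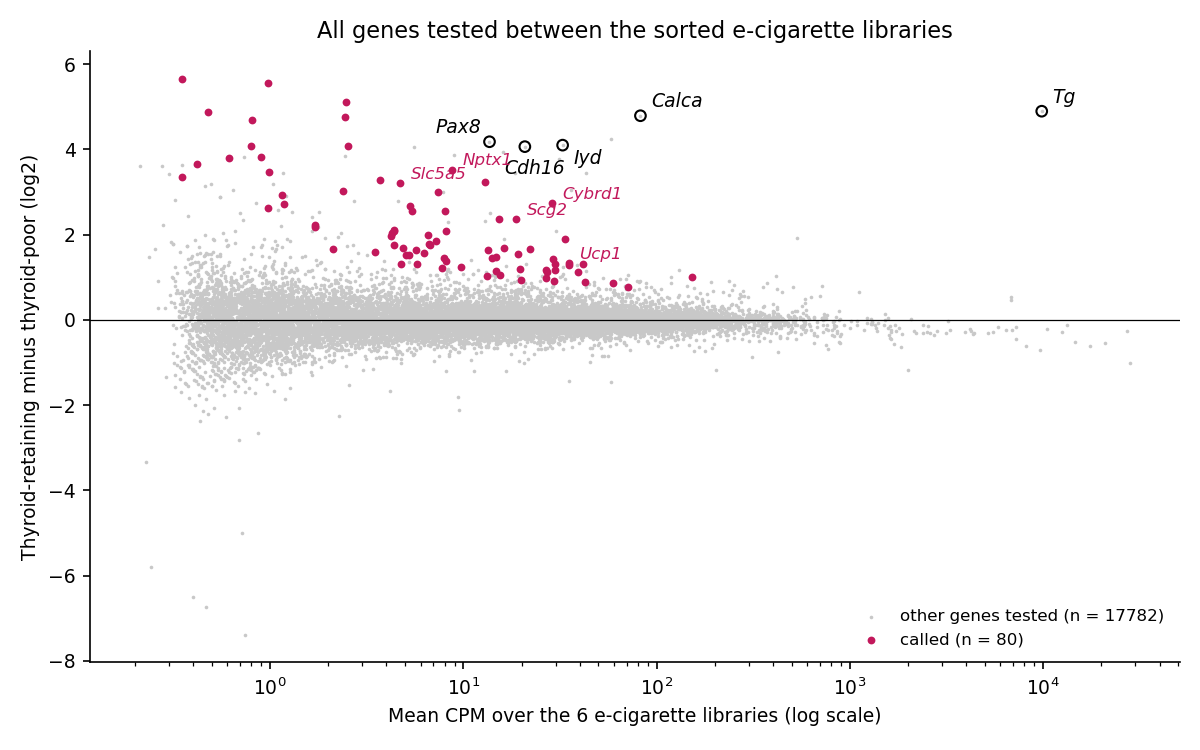
Difference between the 2 thyroid-retaining and 4 thyroid-poor e-cigarette libraries (log2, vertical) against mean CPM (log scale) for the 17862 genes tested, with the 80 called genes coloured and 5 canonical thyroid genes circled. All called genes lie above 0, and the circled genes lie between 4.06 and 4.90 log2 without being called.

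When Tg share entered as a continuous term over the same 6 libraries in place of the sorting, the canonical genes had slopes near 1, given as a description because Tg also sorted these libraries. Per doubling of Tg share, Cdh16 rose by 0.92 ± 0.05 log2 (SE), Pax8 by 0.88 ± 0.04, Iyd by 0.83 ± 0.03 and Calca by 0.80 ± 0.06, where a slope of 1 means direct proportion. Genes with a level that did not vanish had lower slopes, 0.22 ± 0.03 for Nkx2-1 and 0.31 ± 0.05 for Scg2. Of 17266 genes fitted, 64 passed the same adjusted p (0.371%), 63 of them rising, and 28 of the 64 were among the 80. Nothing is read from these counts, since the slopes come from the values that sorted the libraries.

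The 10 largest differences among called protein-coding genes were mostly in genes of low level, and several are better known from other tissues. Nptx1, a neuronal pentraxin, had 21.9 and 23.1 CPM in libraries 1 and 3 against 1.89, 1.67, 1.21 and 2.90 CPM in libraries 2, 4, 5 and 6, a difference of 3.52 ± 0.27 log2. Tex11, known from meiosis, had 5.65 and 8.04 CPM against 0.108 to 0.427 CPM, and 13.5 to 40.1 CPM in air. Klhl14, a kelch-family protein, had 7.28 and 6.42 CPM against 0.108 to 0.873 CPM. Myo3b, a myosin of sensory hair cells, had 7.80 and 10.7 CPM against 0.539 to 1.16 CPM. Lefty2, a secreted signal of left-right patterning, had 1.68 and 1.06 CPM against 0, 0, 0 and 0.138 CPM. Tbx22, Eddm3b and Tunar were likewise at 3 CPM or less in every e-cigarette library, and Dio1 and Slc5a5 complete the 10. Each of the 10 was lower in e-cigarette than in air over all 6 libraries, by 2.35 to 3.32 log2 (edgeR adjusted p from 0.000227 to 0.0222). Over all genes tested, 13% were lower there. The 10 were chosen by their low level in thyroid-poor and high level in thyroid-retaining libraries, and both enter this comparison. With only the thyroid-retaining libraries, the values against air ran from -1.94 ± 0.35 log2 (Dio1) to -0.88 ± 0.54 log2 (Lefty2). The choice of the 10 favours values near those of air in that fit, so no p-value is given for it.

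Cybrd1, chosen after its values were seen, had 60.2 and 72.9 CPM in libraries 1 and 3 and 7.57, 10.9, 10.6 and 10.4 CPM in libraries 2, 4, 5 and 6, a difference of 2.74 ± 0.17 log2. Its 4 thyroid-poor values ran only from 7.57 to 10.9 CPM, where those of Tg ran from 83.2 to 2794 CPM. Among the 80 genes, library 6, the thyroid-poor library with most Tg, was the highest thyroid-poor library for 47 (58.8%), against 28.8% of all genes tested. Library 4, with one of the lowest Tg shares, was highest for 22 (27.5%), near its share of all genes tested (22.9%). Such a rank can rest on a small gap, as for Cybrd1, and the order within the thyroid-poor set was not tested.

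Of the 80 genes, 9 were not protein coding, and 2 of these lay beside a gene of the follicular list that is named here. Gm13418, a processed pseudogene, lies 18.5 kb from Pax8 and differed by 3.81 log2. Sfta3-ps lies 2.53 kb from Nkx2-1 and differed by 1.89 log2. Outside that list, Tbx3os2 lies 0.371 kb from Tbx3, a called T-box gene with a difference of 0.93 log2, and differed by 4.09 log2.

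Other tissues also differed between the sets, and are given beside the thyroid genes because their part in the differences was not tested. Adipocyte genes were higher: Ucp1, the uncoupling protein of brown fat, had 71.1 and 46.8 CPM against 19.1 to 27.4 CPM, and Lep, leptin, 12.1 and 10.4 CPM against 2.32 to 5.01 CPM. Of 20 adipocyte genes 11 were higher without overlap and 1 lower, with a median of 0.50 log2. Over all genes tested, 6.71% were higher and 5.37% lower without overlap. Ucp1 and Lep were among the 80, which are 0.448% of all genes tested. Fast skeletal muscle genes had a median of -0.28 log2, with 0 of 20 above 0 and 4 lower without overlap. Their sum was 46417 and 46098 CPM in the thyroid-retaining libraries against 49378 to 60439 CPM. The 22 ciliated cell genes were all below 0 with a median of -0.34 log2, and 6 were lower without overlap, though their sums overlapped (973 and 863 CPM against 949 to 1270 CPM). Dusp2, a phosphatase, had 10.4 and 7.59 CPM against 1.24 to 3.26 CPM, with a spread in air from 28.4 to 343 CPM. It was the only called member of the immediate early list and did not stand for it. The 20 genes of that list had a median of -0.15 log2, with 13 below 0, and 2 were higher and 2 lower without overlap. Lipf, a lipase of glandular acini, had 11008 and 23205 CPM against 28211 to 42444 CPM. Under each scaling tried (TMM, RLE factors, DESeq2 size factors and Tg left out of library sizes) these medians kept their sign.

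**Figure D4:**
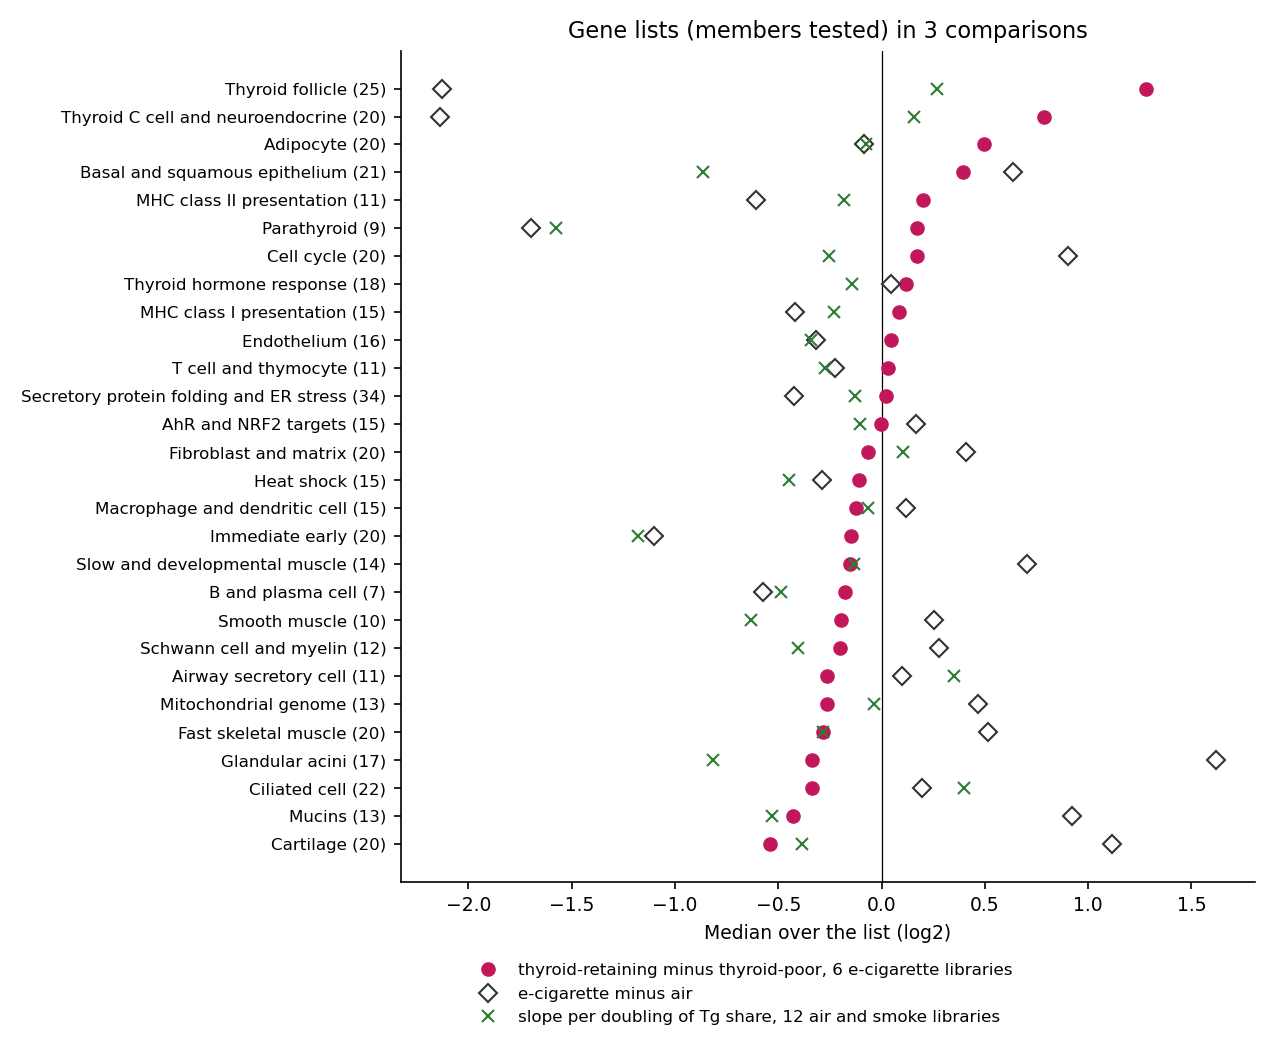
Median log2 value of each of 28 gene lists (members tested in brackets) for thyroid-retaining minus thyroid-poor libraries, for e-cigarette minus air, and for the slope on Tg share in the 12 air and smoke libraries. The follicle and C cell lists are at 1.28 and 0.79 between the sets and near -2.13 and -2.14 against air, whereas protein folding is at 0.02 and -0.42 and MHC class II at 0.20 and -0.61.

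Genes known to act in secretory protein folding, which thyroid tissue uses heavily, did not sort with Tg as a group. Ero1lb, an oxidoreductase of the endoplasmic reticulum, was the only called member of 34, with 53.9 and 69.3 CPM in libraries 1 and 3 against 32.1, 32.7, 31.9 and 34.8 CPM. Hspa5, the main chaperone of that compartment, had 623 and 709 CPM against 654, 544, 551 and 492 CPM, so the sets overlapped. The median of the list was 0.02 log2. The MHC class II list had a median of 0.20 log2 with 0 of 11 called and none free of overlap, and Cd74, its invariant chain, had 127 and 151 CPM against 88.3 to 217 CPM. Of 18 thyroid hormone response genes tested, 2 were higher and 1 lower without overlap, with a median of 0.12 log2. Over all genes tested, 6.71% were higher and 5.37% lower without overlap, and 0.448% were called, so these small counts say little about the lists.

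The labelled comparison of e-cigarette with air shows what each set contributes. Over all 6 e-cigarette libraries, 13% of 17537 genes were lower than in air and 12.1% higher (edgeR quasi-likelihood test, adjusted p below 0.05). Of 25 follicular genes 14 were lower and 3 higher, and of 20 C cell genes 15 were lower and 0 higher. Tg itself differed by -2.88 ± 1.08 log2 (SE, edgeR adjusted p = 0.0636). The follicular median was -2.13 log2, and it was -1.41 with only the 2 thyroid-retaining libraries and -2.71 with only the 4 thyroid-poor ones. Slc5a5 differed from air by -3.20 ± 0.58 log2 over all 6 libraries, by -1.92 ± 0.29 with the thyroid-retaining and -5.12 ± 0.30 with the thyroid-poor ones. For Calca the same values were -4.42 ± 1.02, -2.95 ± 0.34 and -7.75 ± 0.69 log2. Both sets share the 6 air libraries.

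Of the 12 fixed genes, all outside the thyroid lists, Hspa5, Cd74, Muc16 and Top2a differed from air with either set (edgeR adjusted p below 0.05 in each fit). The 12 were chosen with earlier results of these data known, and both fits share the same air libraries. Passing in both is therefore no independent test. The values of Hspa5, Cd74, Muc16 and Top2a lay closer together than those of the thyroid genes. Ahrr, Acta1 and Adipoq passed with the thyroid-poor libraries but not with the thyroid-retaining ones (edgeR adjusted p = 0.137, 0.623 and 0.803). The thyroid-retaining fit had 2 e-cigarette libraries against 4, and called 688 of 18522 genes against 3934 of 17868. Ahrr was 1.25 ± 0.46 log2 with the thyroid-retaining and 1.48 ± 0.38 with the thyroid-poor libraries. In the same order, Acta1 was 0.24 ± 0.23 and 0.55 ± 0.19, and Adipoq -0.09 ± 0.15 and -0.46 ± 0.14. Krt5, Foxj1, Cyp1a1, Acan and Lipf passed with neither set. Hspa5 was lower by a log2 value of -1.13 ± 0.17 over all 6 libraries (edgeR adjusted p = 8.06e-05), -0.99 ± 0.27 with the thyroid-retaining (adjusted p = 0.0489) and -1.23 ± 0.20 with the thyroid-poor ones (adjusted p = 0.000207). Cd74 gave -1.12 ± 0.20, -1.04 ± 0.22 and -1.19 ± 0.24 log2. Muc16, a membrane mucin, gave 1.29 ± 0.17, 0.98 ± 0.22 and 1.40 ± 0.18 log2, and Top2a, a topoisomerase of dividing cells, 1.15 ± 0.22, 1.29 ± 0.24 and 1.05 ± 0.24 log2. The protein folding list had a median of -0.42 over all 6 libraries, -0.44 with the thyroid-retaining and -0.43 with the thyroid-poor ones, with 17, 5 and 16 of 34 genes lower, where 13%, 2.43% and 12.3% of all genes tested were lower in the same fits. Ucp1 and Lep were named because they were called between the sets, so a gap between the sets against air follows from that choice. Ucp1 was -0.55 ± 0.31 log2 over all, 0.17 ± 0.33 with the thyroid-retaining and -1.16 ± 0.25 with the thyroid-poor libraries. Lep was 0.69 ± 0.50, 1.52 ± 0.60 and -0.05 ± 0.50 log2 in the same order. Of these values, only that of Ucp1 with the thyroid-poor libraries passed (edgeR adjusted p = 0.00308), so no change of sign is read from them. Even the thyroid-retaining libraries held less Tg than air, so exposure and thyroid content cannot be told apart in either set.

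**Figure D5:**
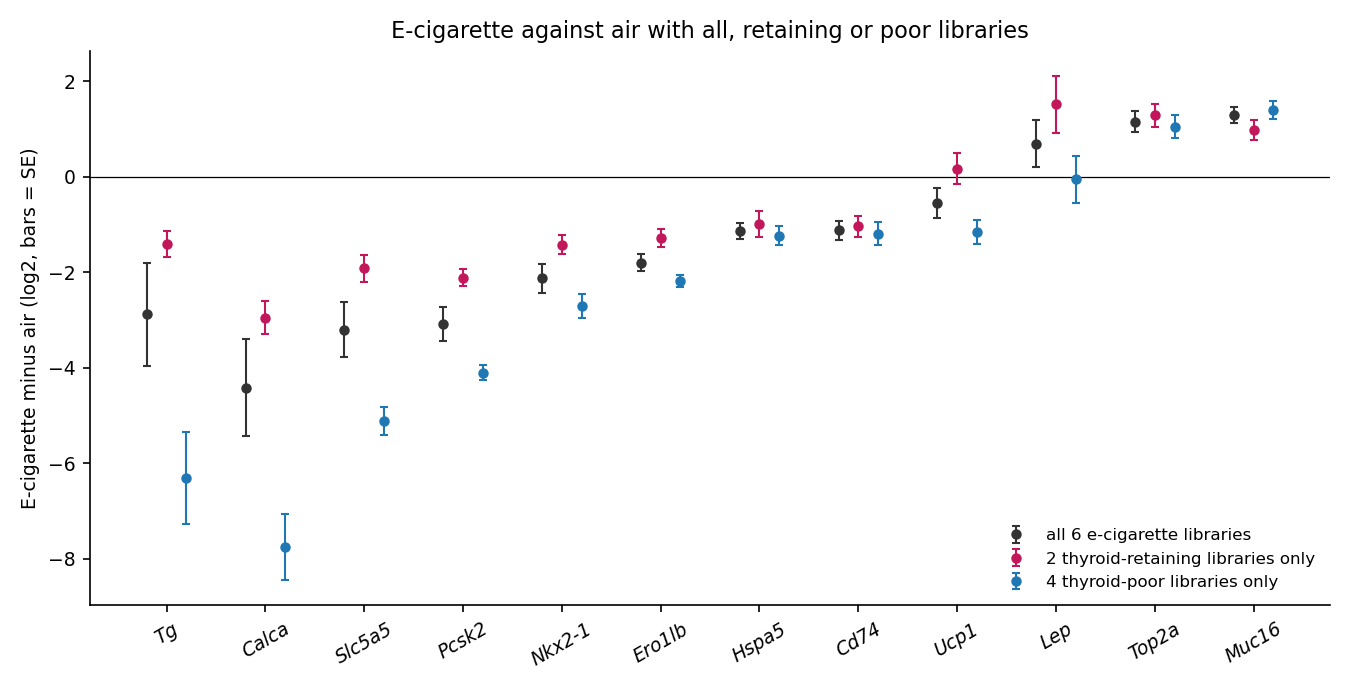
E-cigarette minus air (log2, bars are SE) for 12 genes with all 6 e-cigarette libraries, the 2 thyroid-retaining or the 4 thyroid-poor ones. Tg, Calca and Slc5a5 lie far lower with the thyroid-poor libraries, whereas the values for Hspa5, Cd74, Top2a and Muc16 lie close together.

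The 12 air and smoke libraries, which took no part in the sorting, allow a test of following Tg, although Tg share there ranged only from 5.87% to 10.2%. No gene passed an adjusted p of 0.05 for the slope on log2 Tg share with exposure group as a term (0 of 17861 genes, 0%, edgeR). The smallest adjusted p was 0.176, 1623 genes had an unadjusted p below 0.05 (5.23% rising and 3.86% falling), and DESeq2 called 60 genes. Cdh16 had a slope of 0.43 ± 0.18 log2 per doubling of Tg share (edgeR unadjusted p = 0.0305, adjusted p = 0.523). Slopes of Iyd (0.41 ± 0.26), Slc5a5 (0.37 ± 0.28), Pax8 (0.17 ± 0.40) and Calca (-0.10 ± 0.37) had adjusted p from 0.62 to 0.939. The follicular list had a median slope of 0.27, with 18 of 24 genes above 0, and the C cell list 0.16, with 13 of 20, against -0.05 over all genes, of which 44.5% were above 0. Ciliated cell genes had a higher median, 0.40, with 20 of 22 above 0, and it was 0.72 in the air libraries alone (21 of 22 above 0) and -0.0018 in the smoke libraries alone. The follicular median was 0.22 in air and 0.31 in smoke. Of the 80 genes, 72 had a slope above 0, with a median of 0.43.

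Slopes on Tg in these libraries also went with gene length. Across genes, which are not independent replicates, Spearman's rho between slope and length was 0.290, and the median slope was 0.11 among genes of at least 6147 bases and -0.19 among those of at most 2269 bases. The genes with the smallest p, such as Tenm3 (1.12 ± 0.18 log2 per doubling), Dnah9 (1.10 ± 0.18) and Hydin (1.13 ± 0.21), were chosen after their values were seen; Dnah9 and Hydin are long genes of motile cilia. Between the sorted e-cigarette libraries the same rho was 0.014. The part of length in the slopes was not tested.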

How the data were processed

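Raw read counts per gene for 18 whole-larynx libraries (6 air, 6 cigarette smoke, 6 e-cigarette) were analysed as deposited by the authors, with the gene length in bases that the deposited table also gives under another unit. STAR and featureCounts 1.5.0-p3, and the builds GRCm38 and mm10, are named per the submitters' processing notes; the annotation release and strand setting: not given in the sources used here. Libraries held 15551432 to 22469894 counts, over 54532 genes. Group membership came from the labels. Every e-cigarette library was sorted at a Tg share of 1% of its column sum. The members and gene lists were chosen with earlier results of these data known.

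Counts were filtered (filterByExpr, minimum count 10, total 15), scaled by TMM and fitted with edgeR 4.0.16 (robust glmQLFit, glmQLFTest) in R 4.3.3, with Benjamini-Hochberg adjustment over all genes tested. The fits were made: the sorted e-cigarette libraries (description only), the slope on log2 Tg share over air and smoke with group as a term and Tg left out, and e-cigarette against air over all 3 groups. CPM are on TMM-scaled library sizes, and a floor for 0 is 3 counts, which covers counting error only. SEs were derived from the fold change and F statistic. Chi-square per degree of freedom between pairs of e-cigarette libraries was 33.1 to 114, so none were duplicates.

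Genes named are the 10 largest differences among called protein-coding genes with at least 1 CPM in a set, no overlap and the same sign in each fit without 1 library, up to 3 called members per list, all members of the follicle, C cell and parathyroid lists, and 12 fixed genes; others are said to be chosen after their values were seen. Alternatives used DESeq2 1.42.0, limma 3.58.1 (voom), RLE factors, other filters, Tg left out of library sizes, and each library left out. The fits were tested on simulated data of 17862 genes between the sets. There 28 of 67 changes of 2-fold (41.8%), 57 of 67 of 4-fold (85.1%) and 66 of 66 of 8-fold (100%) were recovered. In the same run, 18 unchanged genes were called. Changed genes were drawn only from those with a mean expected count of at least 10. The simulated sets were not made from Tg, unlike the real ones, so these rates need not hold for them. Promoters came from RefSeq (GRCm38.p6); the sequence for Tg was not used here. Some genes are not reported here.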

Additional observations from a re-analysis of the deposited data

Results flagged for a closer look

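In groups of 6 libraries, a value was set aside when its gap to the nearest other value, as a share of the group's range, passed Dixon's 95% limit. Each measure in each group made 1 set of 6 values, and 6 of the 99 sets examined held such a value. Chance alone picks out about 1 in 20 sets, so this number is near that of chance. No value in the e-cigarette group was picked out.

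Air library 3 was low in Foxe1, at 49.3 CPM against 100.8 CPM in the next air library, and high in Dusp2, at 343 CPM against 95.9 CPM. Air library 5 had the most detected genes, 26788 against 24662. Smoke library 3 was highest for Cdh16 (209 CPM against 154), Scg2 (211 CPM against 176) and Eddm3b (11.1 CPM against 5.92). Smoke library 3 had a Tg share of 8.90%, the second highest of the smoke libraries.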

How the results depend on the processing

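The number of genes called between the sets was 140 with DESeq2, 178 with no filter on low counts, 53 with a mean of at least 1 CPM, 123 with limma voom and quality weights, 144 with the spread from all libraries, 70 with RLE factors, 70 with Tg left out of library sizes and 64 with the continuous Tg term; leaving out 1 library at a time gave 7 to 117. Of 1003 gene differences recomputed, 41 moved by more than the spread. A change of sign was looked for only in named genes that were called between the sets, and none of these changed sign. The 10 largest differences were named only if they kept their sign in each fit without 1 library, so for them that part was fixed in advance. Duox2, which was not called, did not keep its sign in every fit without 1 library. List medians moved in 3 of 364. The slope on Tg called 60 genes with DESeq2, 2 with no filter, 44 in the smoke libraries alone (43 falling), 43 without air 4, 5 and 6, and 0 in air alone; leaving out 1 library gave 0 to 1. The smoke and air slopes did not differ in a test of the difference for any gene (0 of 18368 called, 1203 at an unadjusted p below 0.05, edgeR). The slope of Foxj1 reversed to -0.034 in smoke alone and to -0.038 without air 4, 5 and 6; the cause was not tested. E-cigarette against air called 4406 genes, 688 without the thyroid-poor libraries, when 2 e-cigarette libraries remained, and 3678 to 4276 without 1 library.

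Replicate numbers did not pair samples: same-numbered air and smoke libraries correlated from -0.29 to 0.117 and air and e-cigarette libraries from -0.305 to -0.0192. With the replicate block, the slope called 0 genes and e-cigarette against air 3791. The sorted libraries belong to 1 group and have no pairing. With 2 libraries against 4, the smallest exact two-sided permutation p is 0.133.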
